A study of Mus musculus with 29 samples.

Results

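The collagen genes of the mouse heart were followed across 29 RNA sequencing libraries. They were taken as every row of the count table whose symbol is Col, a number, the letter a and a number, which gave 44 of 20411 genes. By the assembly of the encoded chains, 11 are fibrillar, 6 are basement membrane (type IV) and 27 are other collagens. Enough counts for a test were present for 29 of the 44 (8 fibrillar, 5 basement membrane and 16 other), among 12928 tested genes. All hearts came from wildtype BALB/c mice that had received, intravenously, an adeno-associated virus whose Tbg promoter is active in hepatocytes, so the transgene was not aimed at the heart. It carried REV-ERBα, a repressor of the circadian clock that belongs to the nuclear receptors, or green fluorescent protein (GFP). Tumour-bearing mice received C26 colon tumour cells under the skin 10 days later, and tumour-free mice received saline (PBS). The groups were C26_REV-ERBa with 10 hearts, C26_GFP with 10, PBS_REV-ERBa with 5 and PBS_GFP with 4, each heart from an animal with its own number. Neither age, sex nor the interval from tumour cells to collection is stated in the labels.

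Collagen chains wind around each other as a helix and are secreted as procollagen. Types I and III form the thick fibrils that give the heart wall its stiffness, and type V starts and limits the growth of those fibrils. Type IV forms the sheet-like network of the basement membrane that surrounds each cardiomyocyte and each capillary. Col4a1 and Col4a2 encode the chains of the network found in nearly all basement membranes, while Col4a3, Col4a4 and Col4a5 encode a second network that is best known from the filter of the kidney. Type VI forms beaded filaments between the basement membrane and the fibrils, type VIII short-chain networks in vessel walls, and types XV and XVIII, which carry sugar chains, sit where the basement membrane meets the matrix. In the heart, fibroblasts make most of the fibrillar collagens, and endothelial and mural cells contribute to the basement membrane.

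The start regions of Col4a4 (with Col4a3), Col8a1 and Col8a2 are shown because these 4 genes had the lowest log2 fold changes with the tumour in GFP mice, and that of Col4a1 and Col4a2 because this pair has the same layout in the genome as Col4a3 and Col4a4. Col4a3 and Col4a4 lie head to head on chromosome 1 with starts 72 bases apart, and Col4a1 and Col4a2 lie head to head on chromosome 8 with starts 21 bases apart, so 1 window of each pair holds both starts. The sequences run from 250 bases before to 50 bases after the start of the named gene, 5′ to 3′ on its own strand, and are taken from RefSeq (GRCm38.p6). Capitals mark GGGCGG, known as the GC box, the CCAAT box, searched by those letters, and TATAAA, known as the TATA box, on either strand, and touching matches run together.
Col4a4 (with the start of Col4a3; chr1:82586800-82587099, minus strand): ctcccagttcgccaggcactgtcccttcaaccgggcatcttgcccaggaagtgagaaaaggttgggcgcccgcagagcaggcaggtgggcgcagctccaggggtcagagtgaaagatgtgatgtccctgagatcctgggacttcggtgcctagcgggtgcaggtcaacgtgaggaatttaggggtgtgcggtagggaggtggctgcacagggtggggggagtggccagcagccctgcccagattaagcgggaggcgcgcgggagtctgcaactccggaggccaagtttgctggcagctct
Col4a1 (with the start of Col4a2; chr8:11312777-11313076, minus strand): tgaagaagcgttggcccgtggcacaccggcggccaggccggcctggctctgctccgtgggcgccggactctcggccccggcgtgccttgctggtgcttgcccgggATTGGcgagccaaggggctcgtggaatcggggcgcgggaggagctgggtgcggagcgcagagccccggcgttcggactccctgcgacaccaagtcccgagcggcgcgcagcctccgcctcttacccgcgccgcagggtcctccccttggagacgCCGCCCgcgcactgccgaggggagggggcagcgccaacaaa
Col8a1 (chr16:57754688-57754987, minus strand): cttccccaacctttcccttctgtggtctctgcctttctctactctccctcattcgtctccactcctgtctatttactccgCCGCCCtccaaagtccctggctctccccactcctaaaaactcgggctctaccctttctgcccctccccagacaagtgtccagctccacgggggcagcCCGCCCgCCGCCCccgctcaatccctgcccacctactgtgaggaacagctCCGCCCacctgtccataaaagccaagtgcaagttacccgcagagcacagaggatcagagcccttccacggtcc
Col8a2 (chr4:126286544-126286843, plus strand): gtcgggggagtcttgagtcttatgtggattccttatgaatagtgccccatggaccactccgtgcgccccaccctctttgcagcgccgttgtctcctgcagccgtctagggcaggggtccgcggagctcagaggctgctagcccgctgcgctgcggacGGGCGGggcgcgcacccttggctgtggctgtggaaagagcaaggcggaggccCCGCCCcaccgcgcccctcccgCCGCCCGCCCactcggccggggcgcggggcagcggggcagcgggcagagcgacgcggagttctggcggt
The Col4a4 window held none of the 3 motifs, the Col4a1 window 1 GC box and 1 CCAAT box, and the Col8a1 and Col8a2 windows 4 GC boxes each. A window was present for 35 of the 44 collagen genes (38 windows), and 60.5% of these windows held a GC box, 34.2% a CCAAT box and 13.2% a TATA box. Among all 32851 windows of 300 bases the shares were 35.7%, 37.4% and 13.6%. These are matches of letters, without evidence of binding.

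Levels between genes are compared as CPM per kb, that is CPM (the count as a share of the scaled library size, in parts per 1e+06) divided by the length over which reads were counted. The type IV pair was the highest, with Col4a2 at 56.3 ± 5.96 in C26_REV-ERBa, 60.7 ± 11.1 in C26_GFP, 71.1 ± 12.7 in PBS_REV-ERBa and 69.0 ± 4.83 in PBS_GFP hearts (mean CPM per kb ± SD). Col6a2, a chain of type VI, came next among the tumour-free hearts after Col4a1, with 40.4 ± 3.36 CPM per kb in PBS_GFP hearts, where Col3a1 had 28.2 ± 5.17. Col4a3, at 0.409 ± 0.0836 in C26_GFP and 1.24 ± 0.377 CPM per kb in PBS_GFP hearts, lay far below Col4a1, its relative of the common network, at 44.5 ± 10.3 in C26_GFP and 52.7 ± 3.87 in PBS_GFP hearts. Within type IV the order Col4a2, Col4a1, Col4a5, Col4a4, Col4a3 was the same in the means of all 4 groups. Together the 44 genes took 0.166 ± 0.022% of counts in C26_REV-ERBa, 0.172 ± 0.027% in C26_GFP, 0.212 ± 0.010% in PBS_REV-ERBa and 0.205 ± 0.010% in PBS_GFP hearts (SD). The share of each class was taken from CPM per kb summed over the 44 genes, not from counts. Of this sum, fibrillar genes held 27.2 ± 3.49% in C26_GFP and 23.8 ± 2.25% in PBS_GFP hearts. Basement membrane genes held 38.1 ± 5.99% in C26_GFP and 36.5 ± 2.90% in PBS_GFP hearts, and the other collagens 34.7 ± 3.07% in C26_GFP and 39.7 ± 2.10% in PBS_GFP hearts. The other collagens held 35.6 ± 1.86% in C26_REV-ERBa and 39.2 ± 1.64% in PBS_REV-ERBa hearts.

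**Figure D1:**
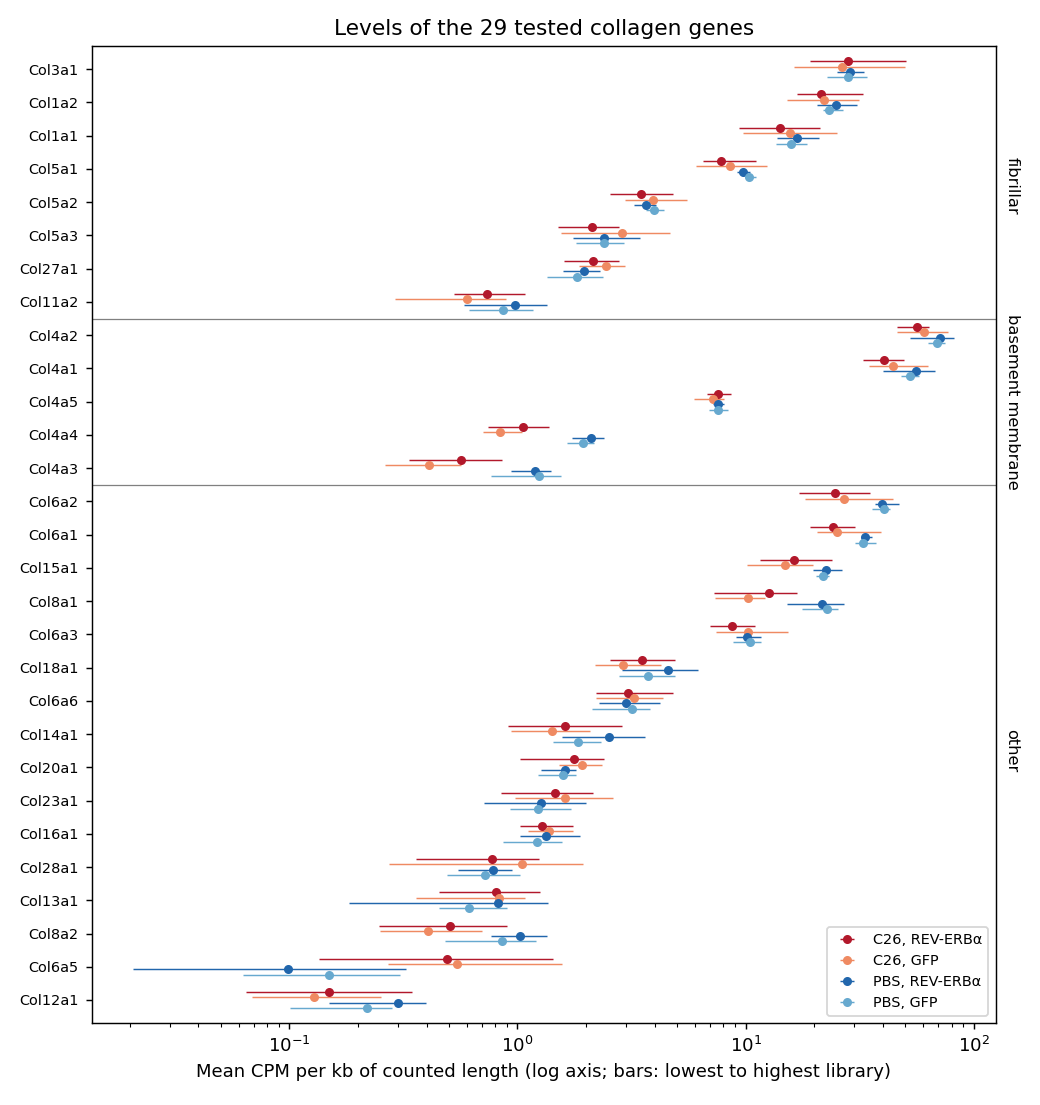
Levels of the 29 tested collagen genes as mean CPM per kb of counted length on a log axis, by class and, within it, from high to low. Points are group means and bars run from the lowest to the highest library. Col4a2 and Col4a1 are highest, and the C26 points of Col4a3, Col4a4, Col8a1 and Col8a2 lie to the left of the PBS points.

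Libraries held 3207497 to 16853646 counts, and the 5 libraries above 10000000 counts were 3 of C26_GFP and 2 of PBS_GFP, so no library of a REV-ERBα group was as deep. Summed cardiomyocyte markers had 40611 to 63015 CPM in every heart, and summed atrial markers ranged from 0.180 to 781 CPM, with overlapping ranges in all 4 groups. Hepatocyte markers reached at most 109 CPM in summed level, and counts of the mouse REV-ERBα gene in heart do not check which vector a mouse received. In whole hearts, fewer cells of a type and less RNA per cell cannot be told apart.

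The first comparison asked what the tumour changed in hearts of GFP mice. Of the 29 tested members, 7 fell in C26_GFP hearts relative to PBS_GFP hearts (Col4a3, Col4a4, Col8a1, Col8a2, Col6a1, Col6a2 and Col15a1), 2 rose (Col27a1 and Col6a5) and 20 did not pass an edgeR adjusted p under 0.05. Over all 12928 tested genes, 14% fell and 14.2% rose, so the share of collagens called, 31%, was close to the 28.2% called over all genes. By class, 2 of 5 basement membrane, 5 of 16 other and none of 8 fibrillar genes fell by edgeR, and the classes were not tested against each other. Limma voom also called the fibrillar genes Col5a1 and Col11a2 lower. The median log2 fold change was -0.25 for basement membrane (the value of Col4a1), -0.19 for other and -0.051 for fibrillar genes, beside -2.9e-05 over all tested genes. With Col15a1 and Col18a1 counted as basement membrane, the basement membrane median was that of Col18a1, -0.36. The median of the other genes then lay between Col6a3 (-0.012) and Col6a6 (0.014). Without the 5 libraries above 10000000 counts, 4 members passed (Col4a3, Col4a4, Col8a1 and Col8a2). Col6a2, Col6a1 and Col15a1 then had log2 fold changes of -0.61, -0.37 and -0.63 (edgeR adjusted p = 0.0634, 0.134 and 0.068), and Col6a5 one of 2.75 (edgeR adjusted p = 0.103). Negative log2 fold changes were found for all 5 basement membrane, 9 of 16 other and 6 of 8 fibrillar genes.

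The same comparison in REV-ERBα mice gave 7 members that fell and 1 that rose among 29, where 3.19% of all genes fell and 4.05% rose. Col4a3, Col4a4, Col8a1, Col8a2, Col6a1 and Col6a2 fell again and Col6a5 rose again. Col4a1 passed here and not in GFP mice, and Col15a1 and Col27a1, which changed in GFP mice, did not pass. Medians were -0.47 for basement membrane (the value of Col4a1), -0.30 for other and -0.20 for fibrillar genes, beside 0.0026 over all tested genes. With Col15a1 and Col18a1 counted as basement membrane, the basement membrane median was that of Col15a1, -0.46. The median of the other genes then lay between Col6a3 (-0.22) and Col16a1 (-0.058). The difference between the 2 tumour effects was itself tested, and it passed for none of the 29 members (edgeR, 0 at an unadjusted p under 0.05, 0 also by DESeq2 and by limma voom), where 0% of all genes passed. Over all tested genes 1357 had an unadjusted p under 0.05 for this difference. A call in 1 vector group and not in the other does not by itself show that the tumour effects differ.

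Between the vectors, in tumour-bearing mice, 1 member rose (Col4a4) and none fell among 29, beside 3.75% of all genes that rose and 3.45% that fell (6 members had an unadjusted p under 0.05, and DESeq2 and limma voom each called 1 member). Without a tumour, 0 of 29 members passed, as did 0% of all genes (edgeR, 0 members and 530 of all genes at an unadjusted p under 0.05, and 0 members by DESeq2 and by limma voom). Class medians of the vector effect with a tumour were 0.084 for basement membrane (the value of Col4a5), -0.071 for other and -0.14 for fibrillar genes. The median over all tested genes was 0.0040.

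**Figure D2:**
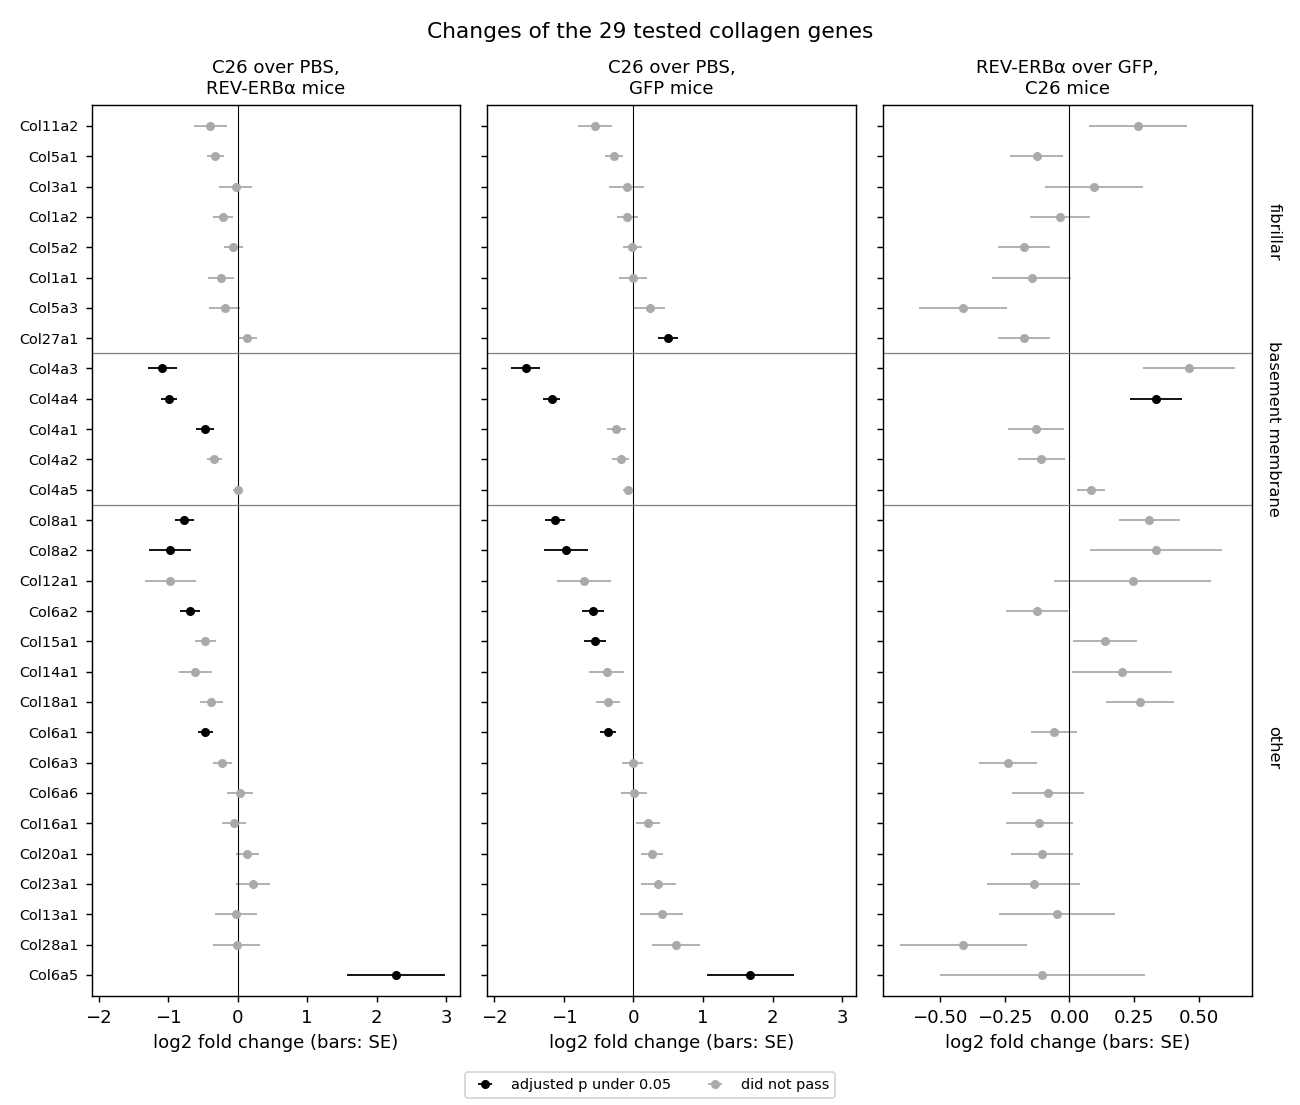
Log2 fold changes of the 29 tested collagen genes with their standard errors, C26 over PBS in REV-ERBα mice, C26 over PBS in GFP mice and REV-ERBα over GFP in C26 mice, black where the edgeR adjusted p is under 0.05. The falls of Col4a3, Col4a4, Col8a1, Col8a2, Col6a1 and Col6a2 appear in both tumour panels, and in the third panel Col4a4 is the 1 black point. The scale of the third panel is narrower.

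Of the 5 tested type IV genes, Col4a3 and Col4a4, whose starts lie in 1 shared region (shown above), fell in GFP mice. Col4a3 lies on chromosome 1, 82586921 to 82722059, plus strand (mm10), and Col4a4 on chromosome 1, 82450723 to 82586849, minus strand. Col4a3 had 2.26, 3.42 and 4.90 CPM (lowest, median and highest of 10) in C26_GFP hearts, against 9.42, 6.63, 13.2 and 13.4 CPM in PBS_GFP hearts. Col4a3 in REV-ERBα mice had 2.88, 4.77 and 7.39 CPM in C26_REV-ERBa hearts, against 9.51, 11.0, 10.7, 8.05 and 12.1 CPM in PBS_REV-ERBa hearts. Within each vector the tumour-bearing hearts lay below all tumour-free hearts, while the highest C26_REV-ERBa heart was above the lowest PBS_GFP heart. Col4a3 was 2.93-fold lower with the tumour in GFP mice, a log2 fold change of -1.55 ± 0.21 (edgeR adjusted p = 7.33e-06), and 2.12-fold lower, -1.08 ± 0.21 (edgeR adjusted p = 0.00134), in REV-ERBα mice. With only the 5 deep libraries the GFP value was -1.37 (edgeR adjusted p = 0.0872). Col4a4 had 5.53, 6.45 and 8.20 CPM in C26_GFP hearts, against 14.5, 12.9, 16.9 and 16.0 CPM in PBS_GFP hearts. Col4a4 in REV-ERBα mice had 5.81, 7.70 and 10.8 CPM in C26_REV-ERBa hearts, against 17.5, 13.6, 18.8, 16.3 and 15.9 CPM in PBS_REV-ERBa hearts. Again no tumour-bearing heart reached a tumour-free one. Col4a4 was 2.26-fold lower with the tumour in GFP mice, a log2 fold change of -1.18 ± 0.12 (edgeR adjusted p = 1.53e-07), and 1.98-fold lower, -0.99 ± 0.12 (edgeR adjusted p = 3.94e-06), in REV-ERBα mice. Between the vectors with a tumour, Col4a4 rose by 0.33 ± 0.10 (edgeR adjusted p = 0.0416) on the log2 scale and its ranges overlapped. That call was lost in 7 of 13 alternative settings. With counts thinned to the smallest total the value was 0.14 (edgeR adjusted p = 0.572), and in the other 6 it was 0.29 to 0.33. It was also lost in 11 of 29 fits that left out 1 library, with values of 0.28 to 0.34 and an edgeR adjusted p of up to 0.0904 (C26_GFP replicates 1, 2, 4, 5, 7 and 10 and C26_REV-ERBa replicates 1, 3, 4, 7 and 10). The vector difference of Col4a3 was 0.46 ± 0.18 (edgeR adjusted p = 0.104), and it passed without C26_REV-ERBa replicate 9 (0.52, edgeR adjusted p = 0.0434).

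The other type IV chains stayed closer to the tumour-free level. Col4a5, whose product joins those of Col4a3 and Col4a4 in 1 network, lies on chromosome X, 141475419 to 141689235, plus strand. Col4a5 had 37.5, 45.1 and 50.7 CPM in C26_GFP hearts, against 47.9, 47.0, 52.8 and 43.9 CPM in PBS_GFP hearts. Col4a5 in REV-ERBα mice had 42.9, 47.6 and 54.3 CPM in C26_REV-ERBa hearts, against 47.3, 51.0, 45.7, 45.8 and 49.6 CPM in PBS_REV-ERBa hearts. All 4 groups overlapped. Its log2 fold change was -0.078 (95% interval -0.22 to 0.062) in GFP mice and 0.0060 (95% interval -0.13 to 0.14) in REV-ERBα mice, so a fall of the size seen for Col4a4 lay outside both intervals. Col4a1 had 230.2, 257 and 414 CPM in C26_GFP hearts, against 379.6, 317, 348 and 344 CPM in PBS_GFP hearts. Col4a1 in REV-ERBα mice had 215, 257 and 328 CPM in C26_REV-ERBa hearts, against 315, 395, 264, 446 and 426 CPM in PBS_REV-ERBa hearts. The median of tumour-bearing hearts was below each PBS heart, but C26_GFP replicates 7 and 10 were above the highest PBS_GFP heart. Col4a1 had a log2 fold change of -0.25 ± 0.14 (edgeR adjusted p = 0.2) in GFP mice and of -0.47 ± 0.13 (edgeR adjusted p = 0.0283) in REV-ERBα mice. That call in REV-ERBα mice was lost when PBS_REV-ERBa replicate 2, 4 or 5 was left out (edgeR adjusted p = 0.0752, 0.101 and 0.101), where the values were -0.44, -0.39 and -0.41. Col4a2 had 295, 372 and 498 CPM in C26_GFP hearts, against 479.9, 405, 449.9 and 439.6 CPM in PBS_GFP hearts. Col4a2 in REV-ERBα mice had 295, 349 and 411 CPM in C26_REV-ERBa hearts, against 403, 499.5, 339.5, 529 and 513 CPM in PBS_REV-ERBa hearts. C26_GFP replicates 7 and 10 were again the highest of their group, and in REV-ERBα mice the groups overlapped through PBS_REV-ERBa replicates 1 and 3. Its log2 fold change was -0.19 ± 0.12 (edgeR adjusted p = 0.257) in GFP mice and -0.34 ± 0.11 (edgeR adjusted p = 0.0591) in REV-ERBα mice. The value in REV-ERBα mice passed in 6 of 13 alternative settings and in 6 of 29 fits that left out 1 library, with an edgeR adjusted p of 0.0188 without PBS_REV-ERBa replicate 3 (-0.43). The other 5 were C26_GFP replicates 6, 7 and 10 and C26_REV-ERBa replicates 1 and 7. The rows of Col4a1 and Col4a2 share 22 bases on opposite strands, and the labels do not say whether counting used the strand, so reads there cannot be told apart. Col4a6, the sixth type IV gene, had too few counts to be tested.

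**Figure D3:**
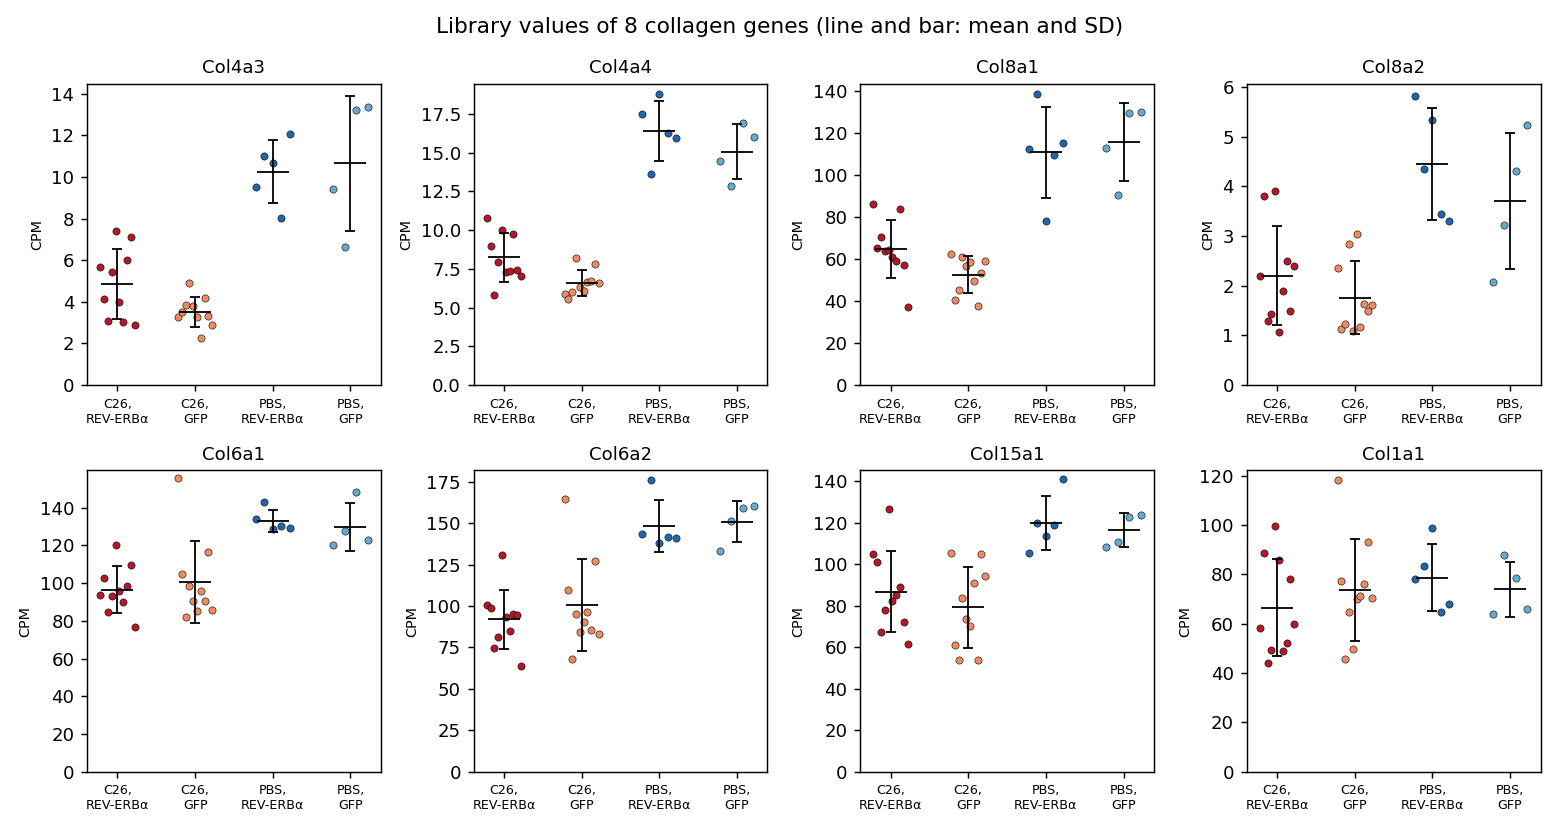
CPM in each of the 29 libraries for Col4a3, Col4a4, Col8a1, Col8a2, Col6a1, Col6a2, Col15a1 and Col1a1, with group mean and SD. The C26 and PBS points of Col4a4 do not overlap with either vector, while the ranges of Col1a1 overlap between all 4 groups.

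Type VIII collagen fell in both of its chains. Col8a1 lies on chromosome 16, 57624256 to 57754737, minus strand. Col8a1 had 37.7, 55.1 and 62.5 CPM in C26_GFP hearts, against 113, 90.5, 129 and 130.2 CPM in PBS_GFP hearts. Col8a1 in REV-ERBα mice had 37.3, 64.0 and 86.3 CPM in C26_REV-ERBa hearts, against 113, 138, 78.0, 109.6 and 115 CPM in PBS_REV-ERBa hearts. The highest C26_GFP heart was below the lowest PBS_GFP heart, and in REV-ERBα mice the groups overlapped through 1 tumour-free heart. Col8a1 was 2.19-fold lower with the tumour in GFP mice, a log2 fold change of -1.13 ± 0.15 (edgeR adjusted p = 4.14e-06), and 1.70-fold lower, -0.77 ± 0.14 (edgeR adjusted p = 0.00108), in REV-ERBα mice. Between the vectors with a tumour it differed by 0.31 ± 0.12 (edgeR adjusted p = 0.104). This vector difference passed without C26_REV-ERBa replicate 9, the lowest heart of its group (0.37, edgeR adjusted p = 0.0186). It also passed without the 6 libraries of high atrial markers, which include that same heart (0.43, edgeR adjusted p = 0.0119). Col8a2 lies on chromosome 4, 126286794 to 126314330, plus strand and had 0.406 ± 0.168 CPM per kb in C26_GFP and 0.856 ± 0.315 CPM per kb in PBS_GFP hearts, far below Col8a1 with 10.3 ± 1.72 CPM per kb in C26_GFP and 22.6 ± 3.65 CPM per kb in PBS_GFP hearts (mean ± SD). Col8a2 had 1.08, 1.55 and 3.04 CPM in C26_GFP hearts, against 2.08, 3.22, 4.30 and 5.23 CPM in PBS_GFP hearts. Col8a2 in REV-ERBα mice had 1.07, 2.04 and 3.90 CPM in C26_REV-ERBa hearts, against 5.83, 4.35, 5.34, 3.45 and 3.31 CPM in PBS_REV-ERBa hearts. Both pairs of groups overlapped. Col8a2 had a log2 fold change of -0.96 ± 0.32 (edgeR adjusted p = 0.0224) in GFP mice and of -0.97 ± 0.30 (edgeR adjusted p = 0.0452) in REV-ERBα mice. Its call in GFP mice was lost without PBS_GFP replicate 3 or 4 (edgeR adjusted p = 0.0694 and 0.105), where the values were -0.87 and -0.77. It was also lost in 3 of 14 alternative settings, among them only the 5 deep libraries (-0.59, edgeR adjusted p = 0.598) and thinned counts (-0.92, edgeR adjusted p = 0.0797). In REV-ERBα mice the call was lost in 4 of 13 alternative settings, with values of -0.93 to -1.04, and in 13 of 29 fits that left out 1 library, with values of -0.87 to -1.07 and an edgeR adjusted p of up to 0.118 (C26_REV-ERBa replicates 2, 3, 5, 6, 8 and 9, PBS_REV-ERBa replicates 1 to 5 and PBS_GFP replicates 2 and 3).

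In type VI, whose common filament is built from the products of Col6a1, Col6a2 and Col6a3, 2 of the 3 genes fell. Col6a1 and Col6a2 lie 85387 bases apart on chromosome 10 in the same direction, and Col6a3 lies on chromosome 1. Col6a2 had 67.8, 92.8 and 165 CPM in C26_GFP hearts, against 133, 151, 159 and 160.2 CPM in PBS_GFP hearts. Col6a2 in REV-ERBα mice had 64.0, 94.0 and 131 CPM in C26_REV-ERBa hearts, against 144, 176, 138, 142 and 141 CPM in PBS_REV-ERBa hearts. C26_GFP replicate 1 was above the highest PBS_GFP heart, and in REV-ERBα mice no tumour-bearing heart reached a tumour-free one. Col6a2 had a log2 fold change of -0.58 ± 0.15 (edgeR adjusted p = 0.00502) in GFP mice and of -0.69 ± 0.14 (edgeR adjusted p = 0.00374) in REV-ERBα mice. Col6a1 had 82.0, 93.4 and 156 CPM in C26_GFP hearts, against 119.9, 127, 148 and 123 CPM in PBS_GFP hearts. Col6a1 in REV-ERBα mice had 76.5, 94.9 and 120.2 CPM in C26_REV-ERBa hearts, against 134, 143, 129, 130.5 and 129 CPM in PBS_REV-ERBa hearts. The layout was that of Col6a2, with replicate 1 again the highest C26_GFP heart. Col6a1 had a log2 fold change of -0.36 ± 0.12 (edgeR adjusted p = 0.019) in GFP mice and of -0.46 ± 0.11 (edgeR adjusted p = 0.00994) in REV-ERBα mice, and its GFP call was lost without PBS_GFP replicate 3 (-0.30, edgeR adjusted p = 0.0955). The GFP call of Col6a1 was also lost in 6 of 14 alternative settings, with values of -0.32 to -0.45 and an edgeR adjusted p of 0.0547 to 0.134. Col6a3 had 66.7, 85.9 and 138 CPM in C26_GFP hearts, against 79.3, 89.0, 106 and 102 CPM in PBS_GFP hearts. Col6a3 in REV-ERBα mice had 62.9, 75.6 and 99.0 CPM in C26_REV-ERBa hearts, against 81.6, 105, 89.6, 85.6 and 94.5 CPM in PBS_REV-ERBa hearts. The Col6a3 groups overlapped with both vectors. Its log2 fold change was -0.012 (95% interval -0.30 to 0.28) in GFP mice and -0.22 (95% interval -0.49 to 0.052) in REV-ERBα mice.

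Col6a5, an alternative chain of type VI shown here because it passed and not by the rule for named genes, rose with the tumour at a low level. Col6a5 had 2.52, 3.73 and 14.6 CPM in C26_GFP hearts, against 0.970, 2.84, 1.15 and 0.581 CPM in PBS_GFP hearts. Col6a5 in REV-ERBα mice had 1.25, 2.61 and 13.3 CPM in C26_REV-ERBa hearts, against 0.307, 0.290, 3.02, 0.192 and 0.778 CPM in PBS_REV-ERBa hearts. Tumour-free hearts were mostly lower, the groups overlapped with both vectors, and C26_GFP replicate 1, C26_REV-ERBa replicate 4 and C26_REV-ERBa replicate 9 stood above the rest. Col6a5 had a log2 fold change of 1.68 ± 0.63 (edgeR adjusted p = 0.0443) in GFP mice and of 2.28 ± 0.71 (edgeR adjusted p = 0.0464) in REV-ERBα mice. Each of these 3 hearts also had a high summed level of the 5 epicardial and mesothelial markers, at 47.5, 56.9 and 100.2 CPM, against 8.89 to 40.3 CPM in the other 26 hearts, and the part of these cells in the result was not tested. The GFP call was lost in 4 of 14 alternative settings, with values of 0.72 (only the 5 deep libraries, edgeR adjusted p = 0.469), 1.41 (depth class as a covariate), 1.80 (thinned counts) and 2.75 (without the 5 deep libraries). In REV-ERBα mice it was lost in 5 of 13, with values of 2.28 to 2.38 and an adjusted p (edgeR or limma voom) of up to 0.0967. By left-out library, the GFP call was lost in 6 of 29 fits that left out 1 library (C26_GFP replicates 1 to 3 and PBS_GFP replicates 1, 3 and 4), with values of 1.36 (without C26_GFP replicate 1) to 1.68. The call in REV-ERBα mice was lost in 14 of 29 (C26_REV-ERBa replicates 4, 8, 9 and 10, PBS_REV-ERBa replicates 1, 2, 4 and 5, and 6 hearts of the GFP groups), with values of 1.94 (without C26_REV-ERBa replicate 9) to 2.32. Values without a lost call reached 2.40 in GFP mice and 3.44 in REV-ERBα mice. Col6a6, its neighbour on chromosome 9, had log2 fold changes of 0.014 in GFP and 0.036 in REV-ERBα mice and did not pass.

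Of the 2 collagens of the basement membrane zone that carry sugar chains, Col15a1 fell in GFP mice. It lies on chromosome 4, 47208012 to 47313165, plus strand, and mice that lack it are known for changes of muscle and small vessels. Col15a1 had 53.8, 78.8 and 105 CPM in C26_GFP hearts, against 108, 111, 123 and 124 CPM in PBS_GFP hearts. Col15a1 in REV-ERBα mice had 61.3, 83.8 and 127 CPM in C26_REV-ERBa hearts, against 106, 120.0, 114, 119 and 141 CPM in PBS_REV-ERBa hearts. No C26_GFP heart reached a PBS_GFP heart, while C26_REV-ERBa replicate 4 reached into the PBS_REV-ERBa range. Col15a1 had a log2 fold change of -0.55 ± 0.16 (edgeR adjusted p = 0.01) in GFP mice and of -0.46 ± 0.15 (edgeR adjusted p = 0.0568) in REV-ERBα mice. In REV-ERBα mice it passed when C26_REV-ERBa replicate 4 was left out (-0.54, edgeR adjusted p = 0.0179), and also without C26_REV-ERBa replicate 1 or C26_GFP replicate 2 or 7. Col18a1, the source of the fragment endostatin, averaged 14.7 ± 3.01 CPM in C26_GFP and 18.8 ± 4.55 CPM in PBS_GFP hearts (SD), and 17.8 ± 3.42 CPM in C26_REV-ERBa and 23.2 ± 6.20 CPM in PBS_REV-ERBa hearts. Its log2 fold changes, -0.36 ± 0.17 (edgeR adjusted p = 0.114) and -0.38 ± 0.16 (edgeR adjusted p = 0.157), did not pass. In GFP mice the Col18a1 value passed without C26_GFP replicate 3 (-0.44, edgeR adjusted p = 0.044) or PBS_GFP replicate 1 (-0.51, edgeR adjusted p = 0.0489), and fits that left out 1 library gave -0.16 to -0.51.

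Type I and type III collagen, the bulk of the thick fibrils, gave no call in any comparison. Col1a1 had 45.8, 70.7 and 118 CPM in C26_GFP hearts, against 63.9, 87.7, 78.3 and 66.0 CPM in PBS_GFP hearts. Col1a1 in REV-ERBα mice had 44.0, 59.1 and 99.7 CPM in C26_REV-ERBa hearts, against 78.3, 83.4, 98.9, 64.6 and 68.1 CPM in PBS_REV-ERBa hearts. All groups overlapped, and C26_GFP replicate 1 was the highest of all hearts. Col1a1 and Col1a2 encode the chains of type I collagen, and Col3a1 that of type III. Col1a2 had 77.8, 111 and 161 CPM in C26_GFP hearts, against 113, 137, 116 and 113 CPM in PBS_GFP hearts. Col1a2 in REV-ERBα mice had 86.5, 100.2 and 169 CPM in C26_REV-ERBa hearts, against 134, 132, 158, 109 and 106 CPM in PBS_REV-ERBa hearts. These groups overlapped too. Col3a1 had 90.8, 138 and 279 CPM in C26_GFP hearts, against 140.3, 172, 189 and 126 CPM in PBS_GFP hearts. Col3a1 in REV-ERBα mice had 107, 122 and 279.8 CPM in C26_REV-ERBa hearts, against 169, 159, 183, 148 and 141 CPM in PBS_REV-ERBa hearts. For Col1a1, Col1a2 and Col3a1 the SD was larger in tumour-bearing than in tumour-free hearts of the same vector. For Col1a2 in REV-ERBα mice the SDs were close, at 25.2 CPM in C26_REV-ERBa and 21.4 CPM in PBS_REV-ERBa hearts. The spread was not tested, and the tumour-free groups are smaller. The tumour effect in GFP mice was -0.012 (95% interval -0.41 to 0.38) for Col1a1, -0.089 (95% interval -0.39 to 0.21) for Col1a2 and -0.096 (95% interval -0.58 to 0.39) for Col3a1 on the log2 scale. In REV-ERBα mice it was -0.24 (95% interval -0.61 to 0.13), -0.21 (95% interval -0.49 to 0.068) and -0.030 (95% interval -0.49 to 0.43) in the same order of genes.

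Type V, which starts fibrils, and the minor fibrillar chains gave 1 call. Col5a1 had 50.8, 67.1 and 104 CPM in C26_GFP hearts, against 86.4, 83.6, 93.8 and 85.5 CPM in PBS_GFP hearts. C26_GFP replicates 1 and 8 were above the highest PBS_GFP heart and the other 8 below the lowest. Col5a1 had a log2 fold change of -0.28 ± 0.13 (edgeR adjusted p = 0.117) in GFP mice and of -0.32 ± 0.13 (edgeR adjusted p = 0.119) in REV-ERBα mice. Without C26_GFP replicate 1 the GFP value passed (-0.35, edgeR adjusted p = 0.0315), and limma voom also called it lower (-0.31, adjusted p = 0.047). Col5a2 had 19.5, 26.7 and 36.8 CPM in C26_GFP hearts, against 24.3, 27.5, 28.98 and 24.7 CPM in PBS_GFP hearts. The C26_GFP range of Col5a2 enclosed the PBS_GFP range, with a log2 fold change of -0.014 (95% interval -0.28 to 0.25). Col5a3 had 9.44, 15.8 and 28.3 CPM in C26_GFP hearts, against 15.8, 13.6, 17.8 and 11.0 CPM in PBS_GFP hearts. Its groups overlapped as well, and with a tumour the REV-ERBα vector went with a log2 fold change of -0.41 ± 0.17 (edgeR adjusted p = 0.128). That value passed without C26_GFP replicate 6 (-0.49, edgeR adjusted p = 0.0372) and without the 5 deep libraries (-0.61, edgeR adjusted p = 0.0224).

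Col27a1, a fibrillar chain known from cartilage, was the 1 fibrillar gene that rose. It lies on chromosome 4, 63215412 to 63334990, plus strand. Col27a1 had 14.2, 19.1 and 22.6 CPM in C26_GFP hearts, against 11.4, 10.3, 18.1 and 16.0 CPM in PBS_GFP hearts. Col27a1 in REV-ERBα mice had 12.2, 16.1 and 21.3 CPM in C26_REV-ERBa hearts, against 14.1, 14.2, 17.2, 12.1 and 17.5 CPM in PBS_REV-ERBa hearts. PBS_GFP replicates 1 and 2, which are both deep libraries, were the lowest, and the other PBS_GFP hearts lay within the C26_GFP range. Col27a1 had a log2 fold change of 0.50 ± 0.14 (edgeR adjusted p = 0.00935) in GFP mice and of 0.14 ± 0.14 (edgeR adjusted p = 0.583) in REV-ERBα mice. Without the 5 deep libraries the GFP value was 0.18 (edgeR adjusted p = 0.565), and without PBS_GFP replicate 1 or 2 it was 0.40 and 0.36 (edgeR adjusted p = 0.0718 and 0.0873). Col11a2 had 1.62, 3.30 and 5.01 CPM in C26_GFP hearts, against 4.85, 6.53, 3.44 and 4.65 CPM in PBS_GFP hearts. Col11a2, a chain of the cartilage fibril, had overlapping groups and a log2 fold change of -0.55 ± 0.24 (edgeR adjusted p = 0.0831), which limma voom called lower (-0.64, adjusted p = 0.019), as edgeR did without C26_GFP replicate 3 (-0.63, adjusted p = 0.0482).

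The remaining tested collagens did not pass in any comparison. Among those that attach to the surface of fibrils, the tumour effect in GFP mice was -0.71 ± 0.39 (edgeR adjusted p = 0.173) for Col12a1 and -0.38 ± 0.25 (edgeR adjusted p = 0.268) for Col14a1, which were lower, and 0.21 ± 0.18 (edgeR adjusted p = 0.393) for Col16a1 and 0.27 ± 0.16 (edgeR adjusted p = 0.232) for Col20a1. In REV-ERBα mice Col12a1 and Col14a1 had values of -0.97 ± 0.36 (edgeR adjusted p = 0.101) and -0.61 ± 0.24 (edgeR adjusted p = 0.113), and both passed without C26_REV-ERBa replicate 4 (-1.21 and -0.74, edgeR adjusted p = 0.0279 and 0.0352). The membrane-spanning collagens Col13a1 and Col23a1 had GFP values of 0.41 and 0.36, and Col28a1 one of 0.61. The 15 members with too few counts were Col2a1, Col11a1 and Col24a1 among the fibrillar genes, Col4a6 in type IV, and Col6a4, Col7a1, Col9a1, Col9a2, Col9a3, Col10a1, Col17a1, Col19a1, Col22a1, Col25a1 and Col26a1. Their mean over all libraries lay between 0.0296 CPM (Col9a1) and 0.886 CPM (Col7a1), and with so few counts they stayed outside the 29. In a fit without the filter edgeR called 4 of these 15 in GFP mice, 1 higher and 3 lower, beside 10.7% of all genes higher and 9.6% lower. Col17a1, a membrane-spanning collagen of the skin, rose there, with 1.03 ± 0.352 CPM in C26_GFP and 0.292 ± 0.247 CPM in PBS_GFP hearts (SD, 158 counts over all libraries) and a log2 fold change of 1.77 ± 0.55 (edgeR adjusted p = 0.0203). Col25a1, another membrane-spanning collagen, had 0.449 ± 0.273 CPM in C26_GFP and 1.22 ± 0.406 CPM in PBS_GFP hearts and fell, with -1.34 ± 0.41 (edgeR adjusted p = 0.0187). Col9a2, a chain on the surface of cartilage fibrils, fell with -1.71 ± 0.61 (edgeR adjusted p = 0.0448), and Col22a1 with -1.94 ± 0.64 (edgeR adjusted p = 0.0286). DESeq2, which sets its own filter, also called Col17a1 higher and Col25a1 and Col9a2 lower, with adjusted p of 0.0147, 0.0182 and 0.0236, beside 12.8% of all genes higher and 12.1% lower, and gave no call for Col22a1. In REV-ERBα mice and between the vectors edgeR without the filter called none of the 15. The lowest mean level of a tested member was 2.08 CPM, for Col12a1.

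Because some partners of 1 network had unlike fold changes, the ratio of 2 genes within a library was taken for 12 pairs. The pairs were chosen with these values known, so the ratios are a description and no test is given. The log2 ratio of Col4a3 to Col4a5 differed by -1.47 ± 0.25 in GFP and -1.13 ± 0.18 in REV-ERBα mice, tumour-bearing minus tumour-free (difference of means ± SE). For Col4a4 to Col4a5 the differences were -1.11 ± 0.12 and -1.01 ± 0.14, in the same order of vectors. Both genes of the shared start region were thus lower relative to Col4a5 in tumour-bearing hearts. Within type VI, the log2 ratio of Col6a2 to Col6a3 ran from -0.26 to 0.33 in C26_GFP hearts, against 0.59 to 0.76 in PBS_GFP hearts, and from -0.035 to 0.55 in C26_REV-ERBa hearts, against 0.58 to 0.81 in PBS_REV-ERBa hearts. No tumour-bearing heart reached a tumour-free heart of its vector. The differences were -0.57 ± 0.071 in GFP and -0.47 ± 0.079 in REV-ERBα mice for Col6a2 to Col6a3, -0.33 ± 0.093 and -0.24 ± 0.081 for Col6a1 to Col6a3, and -0.24 ± 0.072 and -0.24 ± 0.055 for Col6a2 to its neighbour Col6a1. Among the other partners of 1 molecule, the difference was -0.063 ± 0.075 in GFP and 0.053 ± 0.066 in REV-ERBα mice for Col1a2 to Col1a1, and 0.27 ± 0.080 and 0.26 ± 0.090 for Col5a2 to Col5a1. For Col4a2 to Col4a1 it was 0.070 ± 0.035 and 0.12 ± 0.035, and for Col4a4 to Col4a3 0.36 ± 0.18 and 0.13 ± 0.18. Col8a1 to Col1a1 differed by -1.10 ± 0.25 in GFP and -0.50 ± 0.28 in REV-ERBα mice. With a tumour, the largest difference between the vectors among the 12 ratios was that of Col4a3 to Col4a1, higher in C26_REV-ERBa than in C26_GFP hearts by 0.52 ± 0.18. Its ranges overlapped, at -6.35 to -5.09 in C26_REV-ERBa and -6.85 to -5.57 in C26_GFP hearts. The other ratios differed by -0.10 ± 0.15 (Col4a4 to Col4a3) to 0.45 ± 0.23 (Col8a1 to Col1a1).

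**Figure D4:**
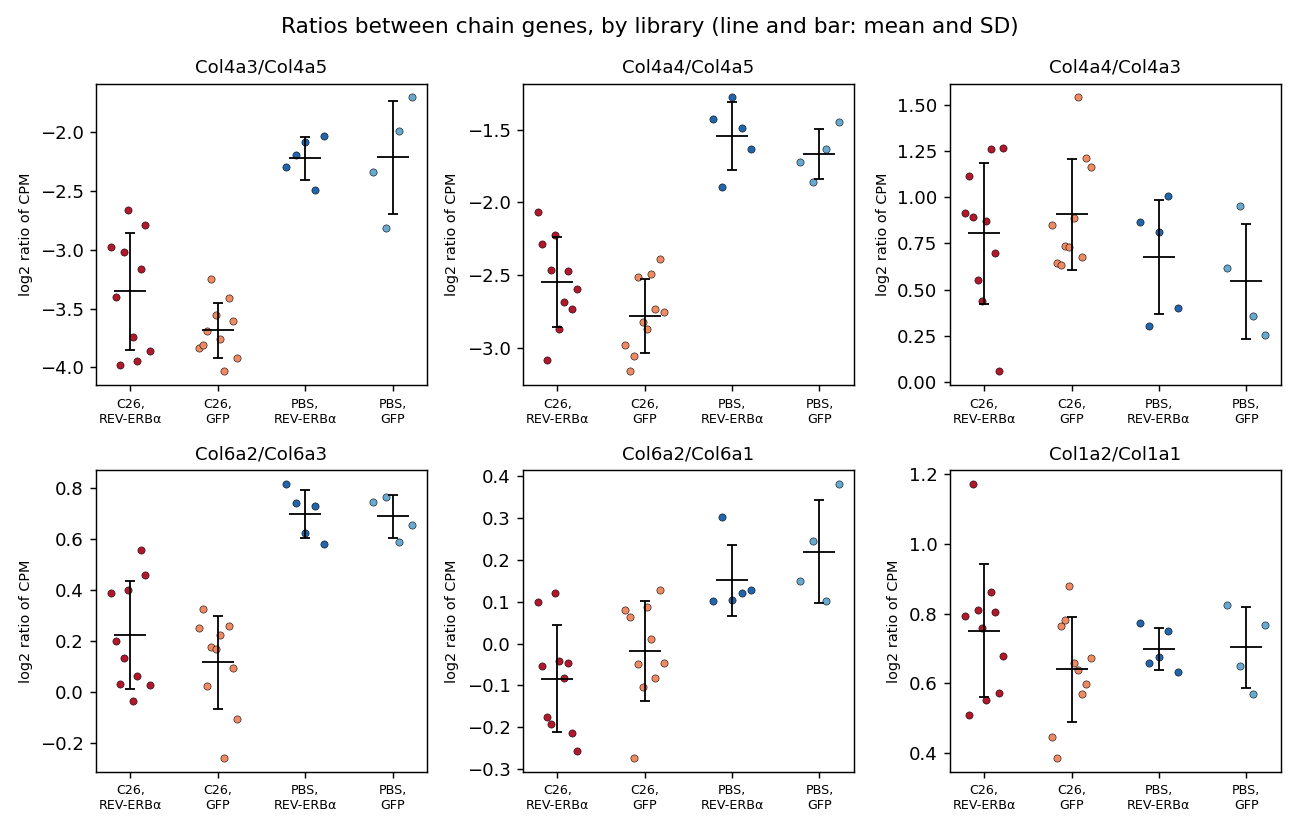
Log2 ratio of CPM between 2 chain genes in each library, by group, with mean and SD. The C26 points of Col4a3/Col4a5, Col4a4/Col4a5 and Col6a2/Col6a3 lie below the PBS points of the same vector with no overlap, while those of Col1a2/Col1a1 overlap in all groups.

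Within tumour-bearing groups, where 10 hearts allow it, pairs of partner genes were correlated over hearts (6 pairs in each of 2 groups, 12 relations adjusted together). Col1a1 and Col1a2 had r = 0.91 (permutation adjusted p = 0.00096) and rho = 0.84 (permutation adjusted p = 0.0127), and r = 0.87 without the 2 hearts farthest from the median in C26_REV-ERBa hearts. In C26_GFP hearts they had r = 0.95 (permutation adjusted p = 0.0011) and rho = 0.76 (permutation adjusted p = 0.0296), and r = 0.83 without the 2 hearts farthest from the median. Col4a1 and Col4a2 had r = 0.90 (permutation adjusted p = 0.00113) and rho = 0.75 (permutation adjusted p = 0.0296), and r = 0.84 without the 2 hearts farthest from the median in C26_REV-ERBa hearts. In C26_GFP hearts this pair had r = 0.95 (permutation adjusted p = 3e-04) and rho = 0.93 (permutation adjusted p = 0.00456), and r = 0.90 without the 2 hearts farthest from the median. Col6a1 and Col6a2 followed each other likewise, with r = 0.92 and 0.96 and rho = 0.83 and 0.90 in C26_REV-ERBa and C26_GFP hearts (permutation adjusted p = 0.0011 and 3e-04 for r, and 0.0127 and 0.00468 for rho). Without the 2 hearts farthest from the median r was 0.73 and 0.88. For Col1a1 and Col3a1, r was 0.93 and 0.81 and rho 0.70 in both groups, in the same order (permutation adjusted p = 0.00113 and 0.00661 for r, and 0.0409 for each rho). Without the 2 hearts farthest from the median their r was 0.86 and 0.58. Col4a3 and Col4a4, which share a start region as Col4a1 and Col4a2 do, had r = 0.66 (permutation adjusted p = 0.0521) and rho = 0.76 (permutation adjusted p = 0.0296), and r = 0.56 without the 2 hearts farthest from the median in C26_REV-ERBa hearts. In C26_GFP hearts the relation had r = 0.28 and rho = 0.25 (permutation p = 0.427 and 0.492 before adjustment), and r = -0.070 without the 2 hearts farthest from the median. These genes have few counts, 1138 for Col4a3 and 1937 for Col4a4 over all libraries, against 61762 for Col4a1. Col8a1 and Col8a2 had r = 0.037 (permutation adjusted p = 0.923) and rho = 0.21 (permutation adjusted p = 0.561), and r = 0.26 without the 2 hearts farthest from the median in C26_REV-ERBa and r = 0.55 (permutation adjusted p = 0.117) in C26_GFP hearts.

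Genes that handle collagen after transcription moved in both directions with the tumour. In the folding list, 5 of 17 tested genes fell and 4 rose in GFP mice, beside 14% and 14.2% of all tested genes. Serpinh1, the chaperone of procollagen also called HSP47, averaged 224 ± 72.9 CPM in C26_GFP and 452 ± 37.2 CPM in PBS_GFP hearts (SD) and changed by -1.01 ± 0.17 (edgeR adjusted p = 6.26e-05). It changed by -0.77 ± 0.16 (edgeR adjusted p = 0.00316) in REV-ERBα mice. P4hb, a subunit of the enzyme that hydroxylates proline in the chains, rose by 0.47 ± 0.080 (edgeR adjusted p = 9.09e-05) in GFP mice, and the lysyl hydroxylase Plod1 fell, with -0.37 ± 0.071 (edgeR adjusted p = 0.000343). Of 7 genes of propeptide removal, which are proteases and the enhancers Pcolce and Pcolce2, 3 proteases rose and none of the 7 fell, with Tll1 at 1.52 ± 0.38 (edgeR adjusted p = 0.00363), Adamts3 at 0.55 ± 0.14 (edgeR adjusted p = 0.00473) and Adamts14 at 0.82 ± 0.28 (edgeR adjusted p = 0.0264). Of 5 lysyl oxidases, which cross-link secreted chains, Lox rose by 1.80 ± 0.41 (edgeR adjusted p = 0.00138), with 20.5 ± 10.4 CPM in C26_GFP and 5.76 ± 0.945 CPM in PBS_GFP hearts, and Loxl2 fell, with -0.55 ± 0.17 (edgeR adjusted p = 0.014). Between the vectors with a tumour Lox fell, with -1.13 ± 0.27 (edgeR adjusted p = 0.0168).

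The counts of the next 5 lists in GFP mice stand beside 14.2% of all tested genes that rose and 14% that fell. Among 11 tested proteins that bind fibrils, 2 rose and 2 fell in GFP mice. The small proteoglycan Dcn had 0.67 ± 0.12 (edgeR adjusted p = 0.000222), Thbs2 0.78 ± 0.22 (edgeR adjusted p = 0.00998) and the collagen-binding glycoprotein Sparc -0.63 ± 0.10 (edgeR adjusted p = 4.09e-05). Of 15 tested other basement membrane genes, 5 fell and 3 rose. Pxdn, the peroxidase that cross-links type IV collagen, fell, with -0.47 ± 0.11 (edgeR adjusted p = 0.00204), and rose between the vectors with a tumour, with 0.30 ± 0.085 (edgeR adjusted p = 0.0355). The laminin gene Lama5 rose, with 1.24 ± 0.17 (edgeR adjusted p = 5.43e-06), and Lamb3 fell, with -0.64 ± 0.20 (edgeR adjusted p = 0.0148), and was higher in C26_REV-ERBa than in C26_GFP hearts, with 0.70 ± 0.15 (edgeR adjusted p = 0.0119). Of 8 receptors 2 fell and none rose, Ddr1 with -0.31 ± 0.078 (edgeR adjusted p = 0.00314) and Itga1 with -0.57 ± 0.17 (edgeR adjusted p = 0.00964), and Ddr2 had 0.22 ± 0.097 (edgeR adjusted p = 0.0892). Of 8 genes of collagen degradation, 4 rose and none fell, among them the proteases Mmp2, with 0.88 ± 0.15 (edgeR adjusted p = 0.000118), and Mmp14, with 1.02 ± 0.19 (edgeR adjusted p = 0.00019), and the inhibitor Timp1, with 2.62 ± 0.54 (edgeR adjusted p = 0.000682). Between the vectors with a tumour 3 of these 8 fell, beside 3.45% of all tested genes. They were Mmp2 with -0.36 ± 0.11 (edgeR adjusted p = 0.0426), Mmp14 with -0.53 ± 0.13 (edgeR adjusted p = 0.0199) and Timp1 with -1.34 ± 0.33 (edgeR adjusted p = 0.0186). Of 12 genes of TGF-beta signalling, known for driving fibrillar collagen, 1 rose and 2 fell in GFP mice. The receptor gene Tgfbr2 rose, with 1.08 ± 0.14 (edgeR adjusted p = 4.45e-06), the ligand gene Tgfb3 fell, with -0.34 ± 0.11 (edgeR adjusted p = 0.0223), and the target gene Ccn2 had 0.53 ± 0.26 (edgeR adjusted p = 0.131).

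Between the vectors with a tumour, where 3.75% of all tested genes rose and 3.45% fell, the folding genes gave 2 falls and no rise among 17, with P4hb at -0.24 ± 0.059 (edgeR adjusted p = 0.0173), and the genes of propeptide removal 2 falls among 7, with Adamts3 at -0.41 ± 0.10 (edgeR adjusted p = 0.0205) and Adamts14 at -0.77 ± 0.20 (edgeR adjusted p = 0.0232). The other basement membrane genes gave 2 rises and 2 falls among 15, the receptors 1 rise among 8 and TGF-beta signalling 1 fall among 12, with Tgfbr2 at -0.48 ± 0.10 (edgeR adjusted p = 0.0106), and no fibril-binding gene passed. With the tumour in REV-ERBα mice, where 4.05% of all genes rose and 3.19% fell, the counts that rose and fell were 0 and 4 of 17 for folding, 1 and 0 of 7 for propeptide removal, 0 and 0 of 5 for lysyl oxidases, 1 and 2 of 11 for fibril-binding proteins, 0 and 3 of 15 for other basement membrane genes, 1 and 1 of 8 for receptors, 1 and 0 of 8 for degradation and 1 and 1 of 12 for TGF-beta signalling. No tested gene of the 8 lists passed for the difference between the 2 tumour effects (edgeR), and the vector groups therefore cannot be said to differ in this.

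**Figure D5:**
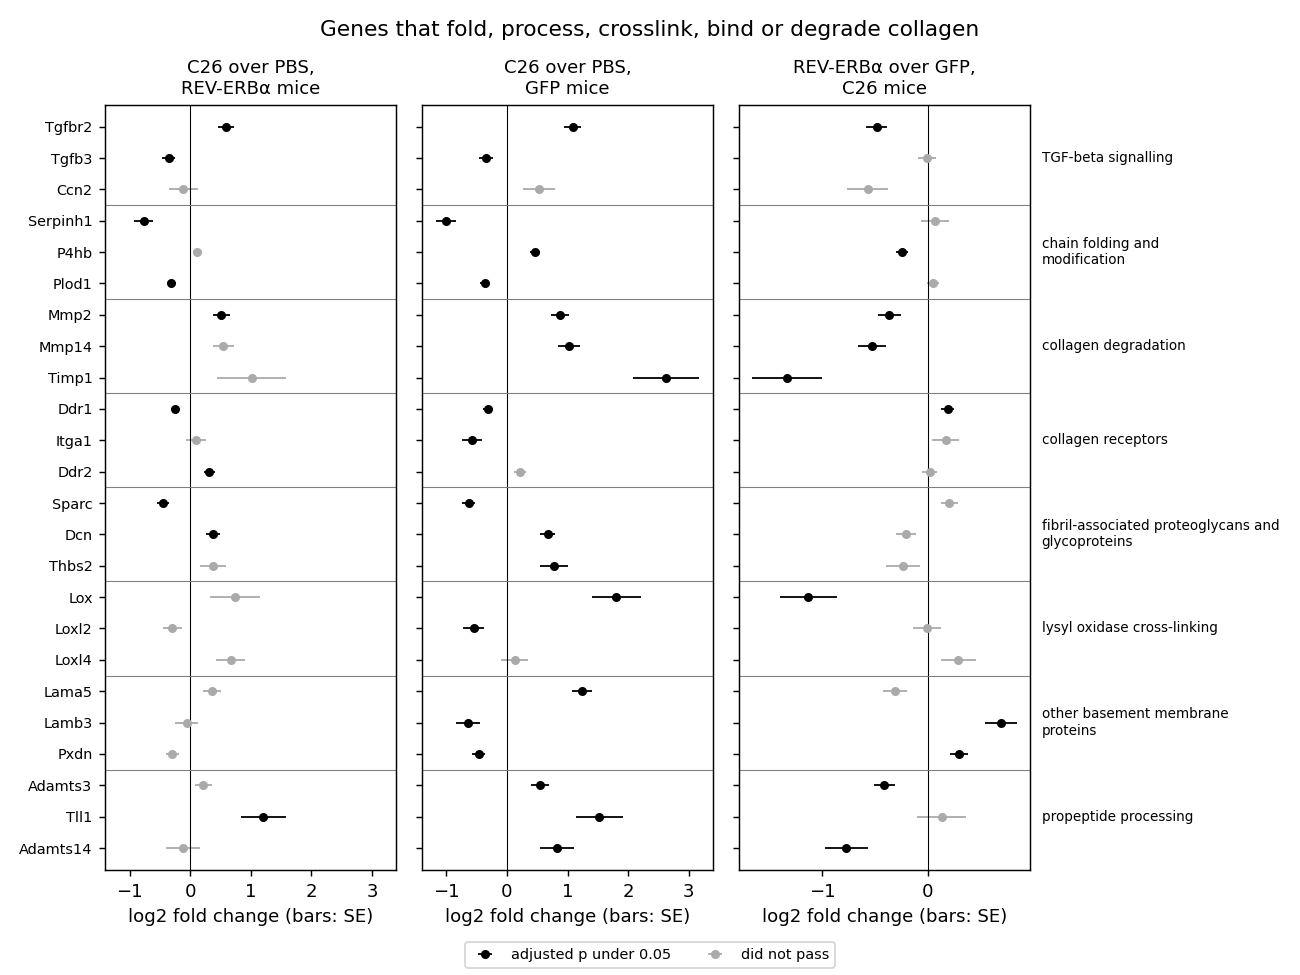
Log2 fold changes with standard errors of the 3 genes with the smallest p-values of each list that folds, processes, cross-links, binds or degrades collagen, C26 over PBS in REV-ERBα mice, C26 over PBS in GFP mice and REV-ERBα over GFP in C26 mice, black where the edgeR adjusted p is under 0.05. Timp1 and Lox show the largest rises with the tumour in GFP mice among those drawn and lie below 0 in the third panel, whose scale is narrower.

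Marker genes of the cells that make collagen were measured in the same hearts, and their counts in GFP mice stand beside 14.2% of all tested genes that rose and 14% that fell. Of 8 fibroblast markers 4 rose and none fell in GFP mice, with a summed level of 2315 to 3058 CPM in C26_GFP and 2111 to 2646 CPM in PBS_GFP hearts, and in REV-ERBα mice 1 of 8 rose, with 2177 to 3039 CPM in C26_REV-ERBa and 2002 to 3264 CPM in PBS_REV-ERBa hearts. Of 5 tested markers of activated fibroblasts 2 fell in GFP mice (166 to 579 CPM in C26_GFP and 294 to 469 CPM in PBS_GFP hearts). Endothelial markers, with 2 of 7 higher and 1 lower, had 1020 to 1214 CPM in C26_GFP and 1168 to 1249 CPM in PBS_GFP hearts, and mural markers, with 1 of 7 lower, 994 to 1561 CPM in C26_GFP and 1436 to 1547 CPM in PBS_GFP hearts. Macrophage markers, with 3 of 6 higher, had 227 to 336 CPM in C26_GFP and 176 to 209 CPM in PBS_GFP hearts. Cardiomyocyte markers, with 5 of 7 lower and 1 higher, had 40611 to 53770 CPM in C26_GFP and 56246 to 60848 CPM in PBS_GFP hearts. None of 4 tested atrial, 5 epicardial and mesothelial, 3 cartilage and 4 Schwann cell markers passed in GFP mice. Their median log2 fold changes were -0.19 for atrial, 1.89 for epicardial and mesothelial, 0.014 for cartilage and 0.32 for Schwann cell markers. In REV-ERBα mice the epicardial and mesothelial median was 2.23, and none of the 5 passed there either. Of 4 tested hepatocyte markers, 2 (Alb and Apob) fell in GFP mice. Their summed level was 91.1 CPM in PBS_GFP replicate 2 against 0.554 to 1.43 CPM in the other 3 PBS_GFP hearts, while C26_GFP hearts had 0.645, 1.69 and 31.6 CPM (lowest, median and highest). No marker of the fibroblast, activated fibroblast, endothelial, mural, macrophage and cardiomyocyte lists was at 0 in a whole group, and the part of such shifts in the collagen results was not tested.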

How the data were processed

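RNA was extracted from the hearts of 29 mice, 1 library each, and sequenced as total RNA with a stranded kit and without poly(A) selection, per the labels' protocols. The deposited values are unnormalised read counts for each RefSeq gene, in 1 table of the authors that also holds coordinates (mm10) and the length counted. Reads were processed with STAR 2.4.2a and DESeq2 1.24.0, per the submitters' processing notes, which give no role for either, and neither the counter nor its strand setting is stated. The table has 1 further per-sample column, which was not used.

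Genes were kept with the edgeR filter (minimum count 10, minimum total 15). Log2 fold changes and p-values came from the quasi-likelihood test of edgeR 4.0.16 (R 4.3.3) with TMM scaling, 1 fit of all 29 libraries in 4 groups and no covariate, with Benjamini-Hochberg adjustment over all tested genes and a threshold of 0.05. Intervals are 95% from the standard error. CPM use the TMM-scaled library size. Ratios add a prior count of 0.5. The steps were tested on simulated data. No 2 libraries agreed within sampling noise (406 pairs compared). Library totals of 3207497 to 16853646 set the precision of each value, and a low count leaves a wide error.

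The classes, members and lists were chosen with earlier results of these data known. Members shown by library are, per class, the 5 with the smallest p-values over the tumour effect in GFP mice and the vector effect with a tumour, with their chain partners, and for the other lists up to 3 genes by the same p. Col1a1, Col1a2, Col3a1 and Col6a5 were added after their values were seen where the rule did not name them. Alternatives were other scalings, DESeq2 1.42.0, limma 3.58.1 voom, other filters, a replicate block, left-out libraries, thinned counts and covariates. For the class medians, another counted Col15a1 and Col18a1 as basement membrane. The file's starts count from 0, so 1 was added to each start printed (of 44 members, 23 then had the start of the RefSeq table).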

Additional observations from a re-analysis of the deposited data

Results flagged for a closer look

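Of 92 sets of library values within a group (20 named members and the mean of each of 3 classes), 3 held a heart that stood apart by Dixon's ratio of gap to range (above the 95% critical value for the group's size), and chance marks about 1 in 20 sets. Col8a1, the type VIII chain, was lowest in C26_REV-ERBa replicate 9 at 37.3 CPM, with the nearest heart at 57.3 and the highest at 86.3 CPM (ratio 0.511). The same heart had the highest summed epicardial and mesothelial markers, 100.2 CPM, and Schwann cell markers, 82.8 CPM, of all hearts. Within its group it had the lowest summed mural markers, 1012 CPM, and cardiomyocyte markers, 43360 CPM. Its summed atrial markers, 526 CPM, were the highest of the group. The part of these marker levels in the result was not tested. Col6a2, the type VI chain, was highest in PBS_REV-ERBa replicate 2 at 176 CPM, with the nearest heart at 144 and the lowest at 138 CPM (ratio 0.838). Col1a2, the type I chain, was highest in PBS_GFP replicate 2 at 137 CPM, with the nearest heart at 116 and the lowest at 113 CPM (ratio 0.839).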

How the results depend on the processing

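With the tumour in GFP mice 9 members passed, and 4 without the 5 libraries above 10000000 counts, 5 with counts thinned to the smallest total, and 3 with only those 5 deep libraries, a setting chosen after seeing the data, where the median log2 fold change was -0.26 for fibrillar and -0.51 for basement membrane collagens. DESeq2 called 12, which are the same 9 and 3 of the 15 members below the filter, and limma voom called 11. Without the filter edgeR called the 9 and 4 of those 15. The 1 call between vectors with a tumour, Col4a4, became 0 calls without a filter on low counts, in a fit of only the groups compared, with thinned counts and with the replicate block. The cause was not tested. In fits that left out 1 library, calls ranged from 6 to 10 in GFP mice, from 5 to 11 in REV-ERBα mice (5 without PBS_REV-ERBa replicate 2, 4 or 5) and from 0 to 3 between vectors with a tumour, and were 0 in each of these fits for the tumour-free vector effect and the difference of tumour effects. Class medians ranged in GFP mice from -0.13 to 0.0078 for fibrillar, -0.31 to -0.20 for basement membrane and -0.25 to -0.10 for other collagens, and in REV-ERBα mice from -0.25 to -0.13, -0.57 to -0.39 and -0.35 to -0.23. Between vectors with a tumour they ranged from -0.22 to -0.055, 0.055 to 0.10 and -0.13 to 1.15e-05. Labels number the replicates, but of 32 pairs with the same number 5 had a correlation of deviations over 0.1 (-0.35 to 0.28), so the numbers were not taken to pair hearts. With the replicate block 8 members passed in GFP mice, 7 in REV-ERBα mice and 0 in the other 3 comparisons. With it Col6a1 (-0.34, edgeR adjusted p = 0.0577) and Col8a2 (-0.93, edgeR adjusted p = 0.0916) did not pass in GFP mice and Col8a2 (-0.93, edgeR adjusted p = 0.158) and Col6a5 (2.29, edgeR adjusted p = 0.0967) in REV-ERBα mice, while Col4a1 in GFP mice (-0.37, edgeR adjusted p = 0.0375) and Col4a2 in REV-ERBα mice (-0.38, edgeR adjusted p = 0.0425) passed. Low counts limit Col4a3, Col8a2, Col6a5, Col12a1 and the 15 untested members.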
